A study of Homo sapiens with 6 samples.

Results

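The neuronal pentraxin genes NPTXR, NPTX1 and NPTX2 and the RIM genes RIMS1, RIMS2, RIMS3 and RIMS4 were examined in cells treated with polydatin (PD), a stilbene glucoside from plants, and in control cells given the solvent DMSO. The 7 genes form 2 families that were chosen by the measured FPKM differences of NPTXR and RIMS4, which were among the largest rises with PD in these same libraries, so their difference between the groups is described here without a test. Of the 7, 6 had a row among the 28563 genes of the table, and 3 (NPTXR, NPTX1 and RIMS4) were among the 14400 that averaged 0.5 FPKM or more (FPKM is fragments scaled to exon length and library total) and were tested. NPTX2 (chr7:98617285-98629869, hg38) was not analysed here.

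The cells were labelled HepG2, an established human cell line from a liver cancer. By the sample labels PD was given at 336 µM for 24 h (the study's methods give a different dose), the control group received DMSO for the same time, and each group had 3 libraries, each from its own plate of poly(A) RNA. The plates came from the same line, so the errors below measure the spread between plates. Worked back from the FPKM, the DMSO libraries held from 16763318 to 17274927 fragments each and the PD libraries from 16308476 to 18071632.

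The labelled cell type was checked against 20 hepatocyte genes, of which 10 were in the table. Of these, 7 (APOA1, TF, SERPINA1, FGA, FGG, HNF4A and CYP3A4) did not exceed 0.172 FPKM in any library, which goes against the label. The summed level of the list ran from 222.0 to 229.0 FPKM in DMSO and from 107.0 to 113.0 FPKM in PD, and nearly all of it was CPS1, the mitochondrial enzyme that starts the urea cycle. CPS1 changed from 225.0 ± 3.45 FPKM (SD, n = 3) in DMSO to 109.0 ± 2.6 in PD. RBP4, the retinol carrier of plasma, had 0.391 ± 0.0803 FPKM in DMSO and 1.3 ± 0.376 in PD. ALB, AFP, APOA2, APOB, APOC3, TTR, FGB, AHSG, FOXA2 and ASGR1 were not analysed here. The cells are therefore called PD-treated and DMSO-treated cells below.

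Neuronal pentraxins are secreted or membrane-bound proteins that gather AMPA-type glutamate receptors at excitatory synapses. NPTX1 and NPTX2 are secreted, whereas NPTXR, the neuronal pentraxin receptor, is anchored in the membrane and forms mixed complexes with both. RIM proteins are scaffolds of the presynaptic active zone, the release site of synaptic vesicles. RIMS1 and RIMS2 encode long forms that bind RAB3 on vesicles, the priming factor UNC13 and calcium channels, and RIMS3 and RIMS4 encode short forms that keep only the C-terminal end. All of these genes are best known from neurons and endocrine cells rather than from liver.

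The sequences upstream of RIMS3 and RIMS1 are shown, as RefSeq (GRCh38.p14) gives them. Both genes were higher in all PD libraries, on 40 fragments or fewer in each library. No window of RIMS4, RIMS2, NPTXR or NPTX1 was in the source used. Each run is the 250 bases before the annotated start, printed on the strand of the gene. The window of RIMS3 is chr1:40665683-40665932 on the minus strand, and that of RIMS1, the first of its windows, is chr6:71886300-71886549 on the plus strand. Capitals mark the GC box (GGGCGG) and the AP-1 site (TGACTCA) on either strand.

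RIMS3: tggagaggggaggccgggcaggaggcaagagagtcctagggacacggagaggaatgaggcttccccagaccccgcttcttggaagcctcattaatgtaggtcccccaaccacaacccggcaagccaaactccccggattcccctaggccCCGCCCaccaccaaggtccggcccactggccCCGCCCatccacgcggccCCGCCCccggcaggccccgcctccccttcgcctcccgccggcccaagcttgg

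RIMS1: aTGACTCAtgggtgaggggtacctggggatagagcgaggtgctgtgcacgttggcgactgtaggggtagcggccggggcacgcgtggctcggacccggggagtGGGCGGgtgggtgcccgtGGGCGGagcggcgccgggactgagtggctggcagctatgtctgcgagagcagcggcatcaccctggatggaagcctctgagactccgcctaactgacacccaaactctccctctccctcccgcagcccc

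The RIMS3 window held 3 GC boxes and had a GC content of 69.6%. The RIMS1 window held 2 GC boxes and 1 AP-1 site and had a GC content of 68.0%. Over the 35095 windows of this length in the same table the median GC content was 58.0%, 42.6% held a GC box and 4.2% held an AP-1 site. Neither window held an E-box (CACGTG), found in 6.34% of all windows, or a CCAAT box (CCAAT), found in 32.0%. The later windows of RIMS1, which are not shown, had GC contents of 45.6% and 43.2% and held no GC box or AP-1 site. The one with 45.6% held 1 CCAAT box. The matches describe letters in these windows and are not evidence of binding.

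NPTXR showed the largest difference of the pentraxins. The gene (ENSG00000221890) lies at chr22:38818452-38844028 on the minus strand (hg38), and its exons, 5830 bases in GENCODE release 44, overlap no exon of another gene. Its level was 1.5, 1.62 and 1.95 FPKM in the 3 DMSO libraries and 9.94, 10.9 and 11.4 FPKM in the 3 PD libraries. Every PD library was far above every DMSO library, and the spread within each group was small beside the gap. These levels rested on 150, 157 and 193 fragments in DMSO and 1039, 1110 and 1073 in PD. The mean went from 1.69 ± 0.233 FPKM (SD, n = 3) to 10.8 ± 0.737, a ratio of 6.36.

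On the scale of log2(FPKM + 1), the difference for NPTXR was 2.13 (SE 0.08), the first in the order of rises among the 14400 genes tested. The pseudocount of 1 compresses differences at low levels. In voom, which works on the fragments themselves, the log2 fold change of NPTXR was 2.67 (SE 0.11) and ranked 71 among 15174 genes. Its place at the head of the list therefore belonged to the log2(FPKM + 1) scale, whereas the direction was the same on both.

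**Figure D1:**
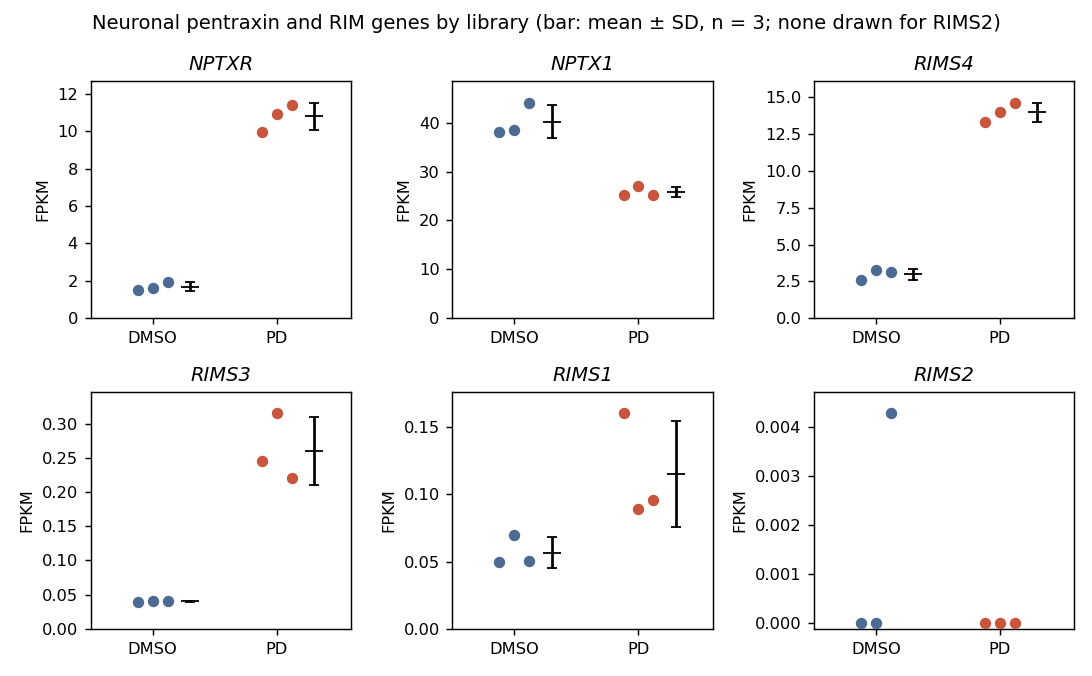
FPKM of the 6 neuronal pentraxin and RIM genes in each library (points; DMSO in blue, PD in red), with the mean and SD of the 3 libraries as a bar beside them, except for RIMS2; each panel has its own linear axis. NPTXR, RIMS4, RIMS3 and RIMS1 were higher in all 3 PD libraries, NPTX1 was lower in all 3, and RIMS2 had a value above 0 in only 1 DMSO library.

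NPTX1 differed in the other direction. This gene (ENSG00000171246; chr17:80466834-80477843, minus strand, exons of 7020 bases without overlap) had 38.0, 38.4 and 44.1 FPKM in DMSO and 25.1, 27.0 and 25.2 FPKM in PD. The lowest DMSO library was above the highest PD library. With 2750 to 5055 fragments in each library, NPTX1 was the most deeply covered of the 6 genes. Its mean went from 40.2 ± 3.41 FPKM (SD, n = 3) to 25.8 ± 1.1, so the level in DMSO was 1.56 times that in PD. The difference on the log2(FPKM + 1) scale was -0.62 (SE 0.06), and in voom it was -0.64 (SE 0.05). It did not reach the 2-fold change asked of a differentially expressed gene (DEG), and it lay between -0.70 and -0.55 under all alternatives run.

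Because FPKM is per length, the levels of the pentraxins can be set side by side within a library. NPTX1 exceeded NPTXR by 25.3, 23.7 and 22.6 times in the DMSO libraries and by 2.52, 2.47 and 2.21 times in the PD libraries. The share of NPTXR in their summed FPKM was 3.8%, 4.05% and 4.24% in DMSO and 28.4%, 28.8% and 31.1% in PD. The sum itself moved much less. It was 39.5, 40.0 and 46.0 FPKM in DMSO and 35.0, 38.0 and 36.5 FPKM in PD, with means of 41.8 ± 3.62 and 36.5 ± 1.5 (SD, n = 3). The composition of the pair therefore changed far more than its total, with the membrane-anchored receptor taking a larger part beside the secreted NPTX1. As these were bulk RNA samples, a change in the number of cells that express a gene and a change in RNA per cell cannot be told apart.

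Pentraxins outside the brain-enriched group were near 0. PTX3, the long pentraxin of innate immunity, had 0 to 5 fragments in each library, and PTX4 had 1 to 3. CRP and APCS, the short pentraxins that the liver secretes into plasma, were not analysed here. Among the pentraxin genes analysed, the measurable RNA thus came from NPTX1 and NPTXR.

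**Figure D2:**
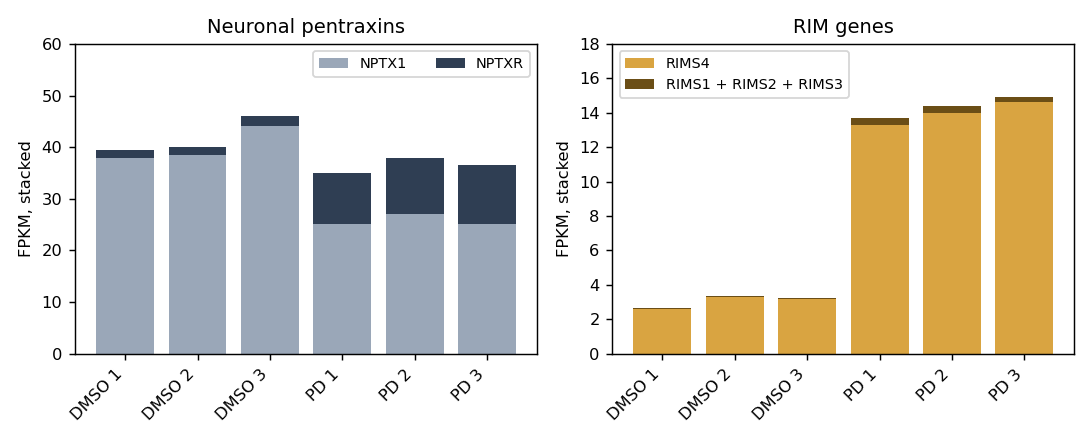
Stacked FPKM of NPTX1 and NPTXR (left) and of RIMS4 and the sum of RIMS1, RIMS2 and RIMS3 (right) in each of the 6 libraries, on linear axes from 0. The pentraxin total stayed between 35.0 and 46.0 FPKM while the part of NPTXR widened in PD, and the RIM total, nearly all RIMS4, was between 2.66 and 3.38 FPKM in DMSO and between 13.7 and 14.9 FPKM in PD.

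RIMS4 was the main RIM gene of these cells. The gene (ENSG00000101098; chr20:44751808-44810546, minus strand, exons of 5414 bases) had 2.57, 3.27 and 3.17 FPKM in DMSO and 13.3, 14.0 and 14.6 FPKM in PD. The groups were widely separated, with the lowest PD library more than 10 FPKM above the highest DMSO library. Fragment numbers were 231, 285 and 282 in DMSO and 1254, 1277 and 1242 in PD. The mean went from 3.0 ± 0.377 FPKM (SD, n = 3) to 14.0 ± 0.65, a ratio of 4.66. The difference was 1.91 (SE 0.08) on the log2(FPKM + 1) scale, the fifth in the order of rises, and 2.23 (SE 0.09) in voom, where it ranked 145.

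RIMS4 shares 506 exon bases, 9.3% of its exons, with KCNK15, a potassium channel gene on the opposite strand, and the sources used here do not state whether counting used strand. KCNK15 had 7.35, 5.78 and 8.01 FPKM in DMSO and 4.9, 6.39 and 5.59 FPKM in PD, and its groups overlapped. Its difference of -0.28 (SE 0.12) on the log2(FPKM + 1) scale did not pass in limma (adjusted p = 0.088). In voom the log2 fold change of KCNK15 was -0.32 (SE 0.12; adjusted p = 0.028 in voom), short of 2-fold. How fragments from the shared bases were assigned was not tested.

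RIMS3, the other short RIM, was low in both groups. The gene (ENSG00000117016) lies at chr1:40620680-40665682 on the minus strand, and its exons of 7259 bases overlap no other gene. It had 5 fragments in each DMSO library and 32, 40 and 26 fragments in the PD libraries. These corresponded to 0.04, 0.0412 and 0.0404 FPKM in DMSO and 0.245, 0.315 and 0.22 FPKM in PD. All PD libraries were above all DMSO libraries. The ratio of the means, 0.0405 ± 0.000623 and 0.26 ± 0.0494 FPKM (SD, n = 3), was 6.42, near that of NPTXR. On the log2(FPKM + 1) scale the same difference was only 0.28 (SE 0.04), and in voom it was 2.55 (SE 0.38).

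RIMS1, a long RIM (ENSG00000079841; chr6:71886550-72403150, plus strand, exons of 12948 bases without overlap), was also low. It had 11, 15 and 11 fragments in DMSO and 37, 20 and 20 in PD, or 0.0498, 0.07 and 0.0503 against 0.16, 0.0892 and 0.0959 FPKM. The PD libraries were all higher, but PD 1 stood well above the other two. The means were 0.0567 ± 0.0115 and 0.115 ± 0.0391 FPKM (SD, n = 3), and the voom log2 fold change was 0.97 (SE 0.34), an SE more than 3 times that of NPTXR or RIMS4.

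RIMS2, the other long RIM (ENSG00000176406; chr8:103500610-104254430, plus strand), had 1 fragment in DMSO 3 and none in the other 5 libraries. A count of 3 fragments, the limit that a count of 0 allows, corresponded to 0.0122 to 0.0135 FPKM, so any RIMS2 RNA was below detection at this depth and no fold was taken. Its exons share 221 bases with the same-strand gene ENSG00000239344. The measured RIM signal was thus almost wholly from a short form: RIMS4 made up 96.6% to 97.1% of the summed RIM FPKM in DMSO and 97.1% to 97.9% in PD. RIMS3 was below RIMS1 in each DMSO library, at 0.803, 0.589 and 0.803 of its FPKM, and above it in each PD library, at 1.53, 3.54 and 2.3 times.

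Ordered by mean FPKM, NPTX1 came before RIMS4 and RIMS4 before NPTXR in both groups. In DMSO, RIMS1, RIMS3 and RIMS2 followed, and in PD, RIMS3 came before RIMS1 and RIMS2. No neighbours in either order had overlapping ranges over the 3 libraries. Among all 28563 genes, NPTX1 ranked 1136 in DMSO and 1973 in PD, whereas RIMS4 went from 9234 to 3656 and NPTXR from 10995 to 4633. NPTXR and RIMS4 also came closer to each other. RIMS4 was 1.71, 2.02 and 1.62 times NPTXR in DMSO and 1.34, 1.28 and 1.29 times NPTXR in PD.

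A DEG was called at an adjusted p of at most 0.05 in limma with a change of at least 2-fold on the log2(FPKM + 1) scale. By this rule 294 genes, 2.04% of the 14400 tested, were higher in PD and 226, or 1.57%, were lower, which makes 3.61% in either direction. With upper quartile scaling the numbers were 223 higher and 270 lower. NPTXR and RIMS4 were 2 of the 294, which follows from how they were picked, so nothing is read from it. In voom, 6.81% of the 15174 genes were called higher and 11.7% in either direction, and of the 5 genes with enough fragments NPTXR, RIMS3 and RIMS4 were among them. RIMS3, with 5 fragments in each DMSO library, had enough fragments only in PD. Nothing is read from these calls either. Groups that did not overlap were common: 35.6% of tested genes were higher in all PD libraries and 29.9% lower, and among genes under 0.5 FPKM, where RIMS1 and RIMS3 lie, 5.77% were higher and 8.52% lower in all PD libraries.

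**Figure D3:**
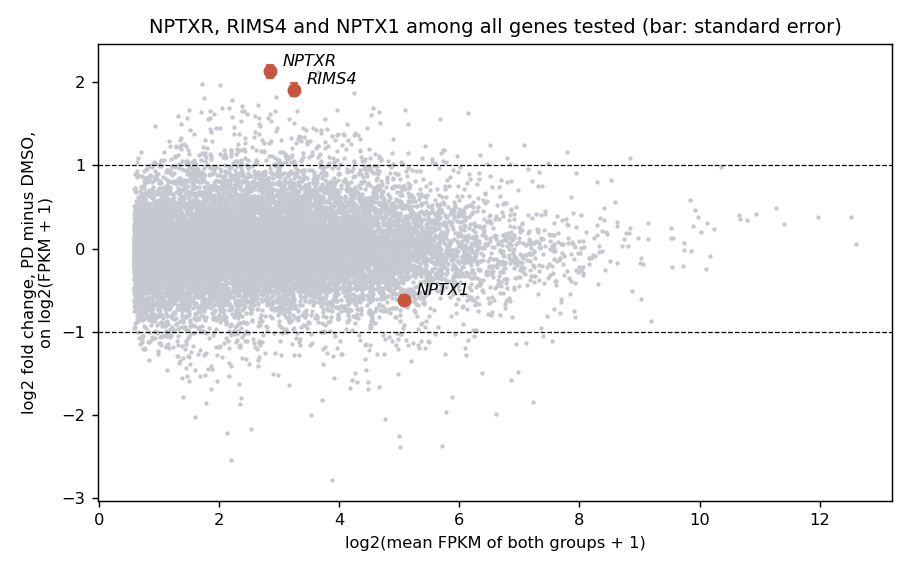
Each grey point is 1 of the 14400 genes tested, with the log2 of its mean FPKM over both groups plus 1 on the horizontal axis and the PD minus DMSO difference on the log2(FPKM + 1) scale on the vertical axis; dashed lines mark a 2-fold change. NPTXR (2.13) and RIMS4 (1.91), in red with their SE, lie at the upper edge, and NPTX1 (-0.62) lies inside the lower line.

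In the order of rises on this scale, NPTXR was followed by HES6 (2.12), BAIAP3 (1.98) and the locus ENSG00000270896 (1.97), then by RIMS4. Just below RIMS4 were IDH2 (1.87), ZCCHC24 (1.83) and GLIPR2 (1.81). NPTXR and HES6, like RIMS4 and IDH2, lay closer to each other than the SE of NPTXR or RIMS4.

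The genes whose centred profile over the 6 libraries was nearest to NPTXR, by the root mean square difference of log2(FPKM + 1), were BAIAP3 (0.134), HES6 (0.146) and IDH2 (0.174). BAIAP3, a relative of the UNC13 priming factors, went from 0.321 ± 0.0458 FPKM (SD, n = 3) to 4.22 ± 0.319, although its exons overlap the opposite-strand gene TSR3. HES6, a basic helix-loop-helix factor of neural differentiation, went from 3.77 ± 1.26 to 19.2 ± 0.744 FPKM. IDH2, the mitochondrial isocitrate dehydrogenase, went from 7.23 ± 0.613 to 29.0 ± 1.14 FPKM. Nearest to RIMS4 were ZCCHC24 (0.114), BAIAP3 (0.123) and LGMN (0.143), the last a lysosomal protease at 3.76 ± 0.173 FPKM in DMSO and 14.0 ± 0.381 in PD. As 6 libraries in 2 groups were compared, likeness here mostly reflects a like difference between the groups.

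Genes beside NPTXR and RIMS4 on the chromosome were read from the same fit. CBX6, a Polycomb chromobox gene 17394 bases from NPTXR, rose from 11.7 ± 0.675 to 17.7 ± 0.78 FPKM (SD, n = 3), by 0.56 (SE 0.05) on the log2(FPKM + 1) scale with an adjusted p of 1e-04 in limma. DNAL4, a dynein light chain gene 24254 bases away on the other side, rose from 3.91 ± 0.282 to 7.29 ± 0.329 FPKM, by 0.76 (SE 0.06) with an adjusted p of 4.8e-05 in limma. Both flanking genes of NPTXR were thus higher in PD, by less than NPTXR itself. Of all genes tested, 31.9% passed in the higher direction, so nothing is read from the position of these genes. DNAL4 shares exon bases with SUN2 on the same strand.

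The genes beside RIMS4 were read in the same way. YWHAB, a 14-3-3 protein gene 75156 bases away, had 46.1 ± 1.45 FPKM in DMSO and 44.6 ± 1.12 in PD (SD, n = 3; adjusted p = 0.30 in limma). On the other side, ENSG00000276223 at 4607 bases fell from 1.08 ± 0.206 to 0.375 ± 0.146 FPKM (adjusted p = 0.0048 in limma), on 2 to 12 fragments in a library. This gene lies within the span of KCNK15 on the same strand, without sharing its exons. Whether its fragments came from KCNK15 RNA was not tested. Neither flanking gene of RIMS4 was higher in PD.

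The genes that work with pentraxins and RIMs at synapses were read from 9 lists of 167 genes, of which 129 were in the table and 72 were tested. The adjusted p in limma passed for 33 genes (45.8%) in the higher direction and 16 (22.2%) in the lower direction, beside 31.9% and 26.2% of all genes tested. The median difference was 0.13 on the log2(FPKM + 1) scale, against 0.01 over all genes. Of the 72, 6 genes (BSN, PCLO, GRIK2, C1QL4, SYT7 and SNAP25) averaged under 0.5 FPKM in DMSO and were tested through their level in PD, and all 6 are among the 33, so their values are given below without a p. Over the 66 genes at 0.5 FPKM or more in both groups, a count added after seeing the data, 27 (40.9%) passed as higher and 16 (24.2%) as lower, beside 32.6% and 26.1% of all genes so restricted. As DEGs only C1QL4 was higher and SYNGR3 lower, each 1.39% of the 72, below the 2.04% and 1.57% of all genes tested. In voom 16 of 87 list genes (18.4%) were called higher and 2 (2.3%) lower, beside 6.81% and 4.87% of all genes. The voom minimum of 10 fragments in 3 libraries could be met through PD alone, as it was by C1QL4, CACNA1G and SLC17A7. GRIK5 and SYTL2 also needed PD libraries to meet it. Calls of such genes as higher follow in part from the filter, so nothing is read from the voom shares.

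Partners of the pentraxins on the receptor side were mostly below the level tested. Of 23 glutamate receptor genes, 13 were in the table and 3 were tested. Of the AMPA receptor subunits themselves only GRIA4 was analysed here, at no more than 0.0406 FPKM. It had 4, 2 and 7 fragments in the DMSO libraries and 2, 0 and 1 in the PD libraries, too few to give a direction. GRIK2, a kainate receptor subunit, had 0.36 ± 0.021 FPKM in DMSO and 1.02 ± 0.164 in PD (SD, n = 3). GRIK1, another kainate receptor subunit, was lower in all PD libraries, with 0.208 ± 0.0669 FPKM in DMSO and 0.105 ± 0.0124 in PD. Its voom log2 fold change was -0.91 (SE 0.39). PICK1, which binds AMPA receptors, passed in the lower direction. ADAM17, the protease that sheds NPTXR from the membrane, had 6.54 ± 0.482 FPKM in DMSO and 6.95 ± 0.101 in PD (adjusted p = 0.28 in limma).

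Synaptic organizers, the adhesion proteins that align both sides of a synapse, had 4 tested genes, of which 3 passed in the higher direction and 1 in the lower. The 3 include C1QL4, which was tested only through its level in PD. C1QL4, a C1q-like secreted protein, had 0.196, 0.259 and 0.254 FPKM in DMSO and 1.12, 1.54 and 1.95 FPKM in PD. It was higher in every PD library, with a difference of 1.03 (SE 0.13) on the log2(FPKM + 1) scale, just past the 2-fold threshold, and its call as a DEG was lost with upper quartile scaling. C1QL1 and the neuroligin NLGN2 also passed in the higher direction, whereas the neuroligin NLGN3 fell from 1.7 ± 0.202 to 0.798 ± 0.166 FPKM (SD, n = 3).

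Genes that act beside RIM at the active zone went in both directions. Of 11 tested scaffold genes 5 passed as higher and 2 as lower, with a median of 0.03. The 5 include BSN and PCLO, which were tested only through their level in PD. BSN, which encodes the large scaffold bassoon, had 0.245 ± 0.0171 FPKM in DMSO and 0.911 ± 0.0454 in PD (SD, n = 3). PCLO, its relative piccolo, had 0.354 ± 0.0103 and 0.776 ± 0.0258 FPKM. The priming factor UNC13B, at 2.77 ± 0.0561 FPKM in DMSO and 4.25 ± 0.0361 in PD, passed as higher.

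The vesicle GTPases that long RIMs bind, with their regulators, had 10 tested genes, of which 6 passed as higher and 2 as lower. RAB3IL1, an exchange factor for RAB3, rose from 17.4 ± 1.38 to 25.6 ± 0.116 FPKM (SD, n = 3), by 0.54 (SE 0.06; adjusted p = 0.00017 in limma). RAB3A itself, the neuronal RAB3, had 1.06 ± 0.11 FPKM in DMSO and 1.41 ± 0.325 in PD (adjusted p = 0.15 in limma). Of 6 tested calcium channel subunits 3 passed as higher and 2 as lower. CACNB3, a beta subunit, rose from 2.03 ± 0.297 to 4.66 ± 0.283 FPKM, by 0.90 (SE 0.08; adjusted p = 9.4e-05 in limma).

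In the release machinery, 22 vesicle fusion genes were tested, and 10 passed as higher, 3 as lower and 9 did not pass. The 10 include SYT7 and SNAP25, which were tested only through their level in PD. SYT7, a calcium sensor of slow exocytosis, had 0.187 ± 0.0496 FPKM in DMSO and 1.32 ± 0.228 in PD (SD, n = 3). Its exons overlap the same-strand gene ENSG00000256443. STX3 and CPLX1, which form or guide the fusion complex, passed as higher, and SNAP25 had 0.343 ± 0.103 FPKM in DMSO and 0.699 ± 0.146 in PD.

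Of the 4 tested synaptic vesicle genes, 2 passed as higher and 1 as lower. SYNGR3, a synaptogyrin of the vesicle membrane, had 5.42, 6.0 and 6.7 FPKM in DMSO and 2.02, 2.57 and 2.56 FPKM in PD. It was lower in every PD library, with a difference of -1.06 (SE 0.09; adjusted p = 7.8e-05 in limma). Its relative SYNGR1 passed in the other direction, from 0.676 ± 0.157 to 1.37 ± 0.14 FPKM (SD, n = 3). The call of SYNGR3 as a DEG was lost without DMSO 3 and without PD 1, where 0 list genes were called lower by limma.

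All 12 genes of REST, the repressor of neuronal genes in other cells, and its partners were tested, and 3 passed as higher, 4 as lower and 5 did not pass. REST had 7.95, 7.78 and 7.69 FPKM in DMSO and 7.8, 6.24 and 6.01 FPKM in PD. PD 1 lay within the DMSO range and PD 2 and PD 3 below it. The difference of -0.20 (SE 0.09) did not pass (adjusted p = 0.078 in limma). In voom the log2 fold change of REST was -0.23 (SE 0.08; adjusted p = 0.015 in voom), short of 2-fold. CTDSPL, a small phosphatase that acts on REST, rose from 3.82 ± 0.409 to 7.06 ± 0.273 FPKM (SD, n = 3), by 0.74 (SE 0.07; adjusted p = 0.00011 in limma). The median of the list, -0.03, was close to that of all genes.

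**Figure D4:**
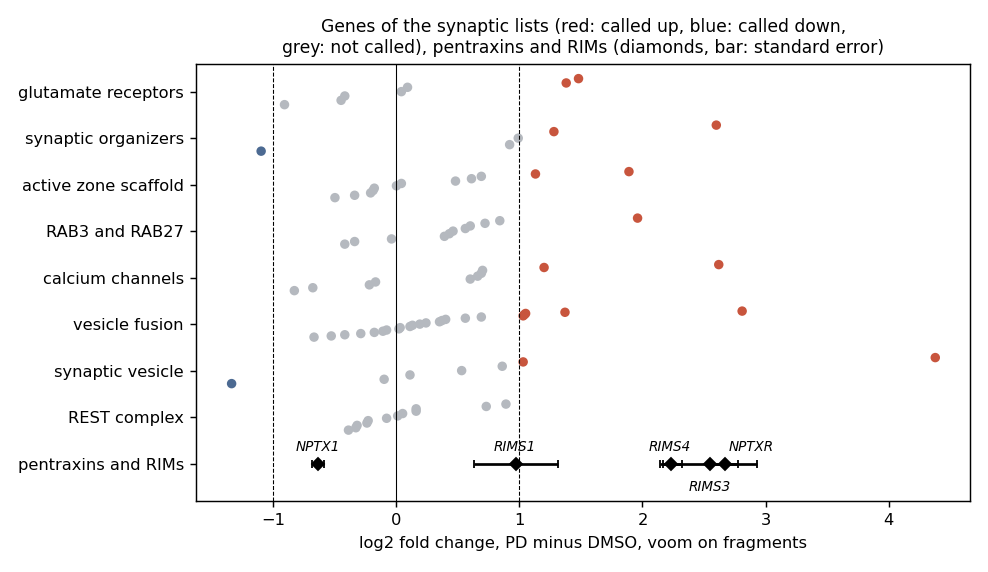
Voom log2 fold change, PD minus DMSO, of each gene of 8 synaptic lists with enough fragments (points; red called higher, blue called lower, grey not called) and of NPTX1, RIMS1, RIMS4, RIMS3 and NPTXR (black diamonds with their SE); dashed lines mark 2-fold. The called genes were mostly on the higher side, 16 against 2, and the rightmost point is SLC17A7, which had 1, 0 and 1 fragments in the DMSO libraries. Some of the genes called higher, SLC17A7 among them, had enough fragments only in PD, so nothing is read from the 16 against 2.

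Markers of cell types that normally express pentraxins and RIMs were read beside these differences. Of 11 neuron markers 4 were in the table, none reached 0.5 FPKM on average, and their summed level was 0.538 to 0.618 FPKM in DMSO and 0.792 to 1.09 in PD. MAP2, a dendritic microtubule protein, made most of that difference, with 0.0961 ± 0.0352 and 0.472 ± 0.0786 FPKM (SD, n = 3), and TUBB3 had 0.318 ± 0.0353 and 0.396 ± 0.127. RBFOX3, the neuronal nuclear antigen, was lower in all PD libraries, with 0.123 ± 0.0536 and 0.0669 ± 0.0193 FPKM, and NEFH, a neurofilament subunit, had 0.0309 ± 0.0306 and 0.0153 ± 0.000814. Of 10 neuroendocrine markers 7 were in the table, and their sum was 9.68 to 10.0 FPKM in DMSO and 15.4 to 16.5 in PD. The largest part of this was ENO2, an enolase, which rose from 7.97 ± 0.329 to 14.6 ± 0.528 FPKM (adjusted p = 1.3e-05 in limma), while PCSK1, a prohormone convertase, fell from 1.77 ± 0.22 to 1.33 ± 0.0326 (adjusted p = 0.033 in limma). CHGA, the defining granin of these cells, had 0 to 4 fragments in each library.

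Fibroblast markers, with 5 of 8 in the table, summed to 4.52 to 5.4 FPKM in DMSO and 4.82 to 5.09 in PD, and COL1A1 had 3.46 ± 0.358 and 3.45 ± 0.199 FPKM (SD, n = 3) and PDGFRB 0.898 ± 0.123 and 1.08 ± 0.0668. DCN, with 0.484 ± 0.0439 and 0.398 ± 0.0329 FPKM, and THY1, with 0.116 ± 0.00632 and 0.0514 ± 0.018, were lower in all PD libraries, and THY1 was called lower in voom. Endothelial markers, with 5 of 6 in the table, did not sum to more than 0.138 FPKM in any library. CLDN5 had 0.0284 FPKM in DMSO and 0.0718 in PD. CDH5 had 0.0262 and 0.00318 FPKM and was lower in all PD libraries, on 3 fragments or fewer in each library. The fibroblast and endothelial sums therefore overlapped between the groups, and the neuron and neuroendocrine sums were higher in PD, though not every marker of these lists was. The part of these marker changes in the result was not tested.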

How the data were processed

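RNA from 3 PD and 3 DMSO plates was sequenced as poly(A) libraries made with the NEBNext Ultra kit. The submitters' processing notes name HISAT2, HTSeq 0.6.0 and hg38; the annotation and the strand setting are not given in the sources used here. The authors converted counts on genes to FPKM, and the deposited FPKM of 28563 genes were the only values used. GENCODE release 44 gave symbols and positions, and 28161 genes matched.

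Samples were grouped by their treatment labels. In R 4.3.3, limma 3.58.1 with a trended variance compared PD with DMSO on log2(FPKM + 1), two-sided, over genes averaging 0.5 FPKM or more, with Benjamini-Hochberg adjustment across all of these. This scale understates changes of low genes. Whole fragments were worked back from FPKM: 12772 genes were whole at their annotated length and 15791 at a common step in their values, within 0.0001 of a fragment. They gave depths and the voom alternative (at least 10 fragments in 3 libraries). No pair of libraries agreed within sampling noise, and the tests were tested on simulated data.

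The genes examined and all lists were chosen with earlier results of these data known. Named genes were the pentraxin and RIM genes, the DEGs of each list or else its tested gene with the largest change, 2 markers per cell type, neighbours of NPTXR and RIMS4, and the nearest profiles and ranks. PTX3, PTX4, GRIA4, GRIK1, PICK1, ADAM17, C1QL1, NLGN2, NLGN3, PCLO, UNC13B, RAB3A, STX3, CPLX1, SNAP25, SYNGR1, REST, CHGA, RBFOX3, NEFH, DCN, THY1, the hepatocyte genes other than CPS1 and RBP4, and the genes of the closing section were named after their values were seen. Some listed genes are not reported here. Other settings are given in the closing section.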

Additional observations from a re-analysis of the deposited data

How the results depend on the processing

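With a pseudocount of 0.1 in place of 1, DEGs numbered 698 higher and 550 lower, and voom on fragments gave 1033 and 739, against 294 and 226. Genes of the synaptic lists called higher numbered 8 with a pseudocount of 0.1, 16 in voom and 0 with upper quartile scaling, where C1QL4 was lost, against 1, and those called lower numbered 2 with a pseudocount of 0.1 and 2 in voom, against 1. The log2 fold changes under a pseudocount of 0.1 and in voom were 2.61 and 2.67 for NPTXR, 2.19 and 2.23 for RIMS4, 1.35 and 2.55 for RIMS3 and 0.44 and 0.97 for RIMS1. A smaller or no pseudocount compresses low levels less, by its construction. Leaving out each library in turn gave 289 to 318 higher and 221 to 243 lower DEGs, 2.08 to 2.2 for NPTXR, 1.83 to 1.96 for RIMS4, -0.66 to -0.55 for NPTX1, 0.24 to 0.3 for RIMS3 and 0.05 to 0.09 for RIMS1. List genes called lower ran from 0 to 1, with 0 without DMSO 3 and without PD 1, where SYNGR3 was lost, and list genes called higher stayed at 1.

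The replicate numbers are shared by both groups but did not pair the libraries, as deviations of the same-numbered libraries correlated at -0.03, 0 and 0.09. With the number as a replicate block, 294 genes were higher and 224 lower. With so few fragments for RIMS1, RIMS2 and RIMS3, depth limits what can be said of them.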

Other observations

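Of the 16 synaptic list genes that voom on fragments called higher, 5 were under the mean of 0.5 FPKM and so were not tested on the log2(FPKM + 1) scale. SLC17A7, the vesicular glutamate transporter VGLUT1 of excitatory neurons, had 1, 0 and 1 fragments in the DMSO libraries and 19, 23 and 23 in the PD libraries, or 0.175, 0.218 and 0.235 FPKM in PD. CACNA1G, a T-type calcium channel, had 0.032 ± 0.024 FPKM (SD, n = 3) in DMSO and 0.167 ± 0.0116 in PD (voom log2 fold change 2.62, SE 0.49). SYTL2, a RAB27 effector, had 0.0751 ± 0.0469 and 0.271 ± 0.0758 FPKM (1.96, SE 0.37), the kainate receptor subunit GRIK5 had 0.101 ± 0.0537 and 0.253 ± 0.029 FPKM (1.38, SE 0.38), and the neurexin NRXN3 had 0.101 ± 0.011 and 0.247 ± 0.0287 FPKM (1.28, SE 0.22). All 5 stayed below 0.5 FPKM in PD on average, a level near that of RIMS3. SLC17A7 and CACNA1G had fewer than 10 fragments in each DMSO library, so they met the voom minimum through PD alone. GRIK5, with 14, 5 and 7 fragments in DMSO, and SYTL2, with 12, 24 and 7, also needed PD libraries to meet it. Nothing is read from the calls of these genes. The kainate receptor subunit GRIK1 went the other way, as given above.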
